A study of Mus musculus with 6 samples.

Results

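The genes examined serve antigen presentation by major histocompatibility complex (MHC) class I and form its peptide loading complex: Tapbp, Tap1, Tap2, B2m, H2-K1, H2-D1, H2-T23, Erap1, Calr and Pdia3. These 10 genes, of 23420 gene rows in all, were picked by symbol because Tapbp was lower in TP-DSCs than in DP-DSCs in these same libraries. The difference between the sorted populations is therefore given as a description of the genes and not as a test of them. All 10 had a row, and all 10 passed the filter on low counts (a minimum count of 10 in enough libraries), while 8 had reads in every library.

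The RNA came from dysplastic stem cells (DSCs) of Meta4, a mouse dysplastic organoid line of epithelial cells, sorted by flow cytometry into the subtypes DP-DSCs and TP-DSCs, with 3 libraries each. DP is taken to mean double positive for the surface antigens CD133 and CD166, TP to mean positive for these and CD44v6. These readings come from knowledge of the study, since the labels give no antigen, organ, genotype, strain, age or treatment. Both groups share the same single organoid line, cultured without the leukocytes and stroma of a tissue. The extract protocol calls the samples independent without naming separate cultures, and the spread behind every p-value may therefore be technical.

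MHC class I molecules show short peptides from inside the cell to CD8 T cells. The peptides are cut by the proteasome, pumped into the endoplasmic reticulum (ER) by the transporter TAP (Tap1 with Tap2), trimmed there by Erap1, and loaded onto a heavy chain bound to B2m. Tapasin (Tapbp) holds the empty heavy chain beside TAP and edits its peptide, with the chaperone calreticulin (Calr) and the disulfide isomerase ERp57 (Pdia3) completing the peptide loading complex. Epithelial cells express class I at a basal level that interferon-gamma raises.

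In mouse, 6 of the 10 genes lie in or beside the MHC on chromosome 17 (GRCm38, GENCODE M21 annotation). Tapbp spans 33915899 to 33929292 on the plus strand and its longest coding transcript has 8 exons. Tap1 (34187553 to 34197225, plus strand, 11 exons) and Tap2 (34203527 to 34216321, plus strand, 12 exons) are neighbours. H2-K1 spans 33996017 to 34000347 on the minus strand, H2-D1 spans 35262730 to 35267499 on the plus strand, and H2-T23 spans 36029773 to 36032855 on the minus strand. B2m (122147686 to 122153083) and Pdia3 (121413775 to 121438687) both lie on the plus strand of chromosome 2. Erap1 lies on chromosome 13 from 74639568 to 74693201, and Calr on chromosome 8 from 84841850 to 84846934. The files count reads per gene, so no exon or isoform is told apart.

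Promoter stretches of the genes are shown because they carry the elements by which class I genes and ER chaperones are classically regulated. RefSeq promoter windows (GRCm38.p6) were matched for 9 of the 10 genes, all but Tap2. Within the 250 bases before each start site, 5 motifs were searched on both strands. The IRF-binding element was searched as GAAA followed after any 2 bases by GAAA. The kappaB motif was searched as GGG, any 2 bases, TT, any single base and CC. The CRE core was TGACG. The sequence CCAAT was searched alone and, with CCACG after any 9 bases, as the ER stress element, so these matches overlap. Matches are in capitals, and positions count back from the RefSeq start site. The H2-D1 and H2-T23 stretches lie inside the GENCODE span of their gene, whose annotated start is farther upstream. The searched window of Tapbp (33919228 to 33919477) also lies inside its gene. Of its 250 bases, 244 are annotated as UTR of any gene on either strand. The same holds for all 250 for Pdia3, Erap1 and H2-D1, 246 for Tap1 and 154 for H2-T23. These UTR bases need not belong to the gene named. The Tap1 window (34187306 to 34187555) lies almost wholly before the annotated start of Tap1 at 34187553, and the Pdia3 window also begins before its gene. In order, the stretches are chr2:122147537-122147646 (plus strand, 150 to 41 bases before the start), chr17:34000348-34000477 (minus strand, 130 to 1 bases before), chr17:35262913-35262942 (plus strand, 181 to 152 bases before), chr17:36032806-36032835 (minus strand, 134 to 105 bases before) and chr8:84847047-84847106 (minus strand, 175 to 116 bases before).
B2m: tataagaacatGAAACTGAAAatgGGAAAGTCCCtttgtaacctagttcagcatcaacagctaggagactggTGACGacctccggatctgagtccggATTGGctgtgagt
H2-K1: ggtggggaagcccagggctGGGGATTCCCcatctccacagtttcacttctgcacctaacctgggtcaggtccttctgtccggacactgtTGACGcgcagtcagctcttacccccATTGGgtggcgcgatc
H2-D1: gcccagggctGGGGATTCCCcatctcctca
H2-T23: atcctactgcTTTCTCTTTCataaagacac
Calr: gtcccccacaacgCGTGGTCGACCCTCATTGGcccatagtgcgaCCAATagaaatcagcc

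B2m, H2-K1 and H2-D1 held the kappaB motif, which stood in 4.11% of all 32851 promoter windows. The 30 bases around it in H2-K1 and H2-D1 were identical at 29 positions. B2m and H2-T23 held the IRF-binding element, present in 2.98% of windows. The CRE core was found for 5 genes (Tap1, B2m, H2-K1, H2-D1 and Pdia3) against 17.8% of windows. CCAAT was found for 8 of the 9 genes with a window, all but Erap1, against 33.8% of windows. Calr alone held the ER stress element, present in 0.113% of windows. The Tapbp window held CCAAT and none of the other 4 motifs. A match describes letters in these windows only.

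Libraries held 17015581 to 32671039 reads in genes. DP-DSC libraries had reads for 12504 to 14434 genes and TP-DSC libraries for 10571 to 10982. The library names carry the number 3840 (1 library of each group, both replicate 1) or 4140 (2 of each group), and the labels do not say what the number marks. The 6 epithelial markers all had reads and summed to 8291 to 10099 CPM in DP-DSCs against 7730 to 9296 CPM in TP-DSCs, where CPM is a gene's reads per 1000000 gene reads of its library. Of 10 leukocyte markers, 9 had a row and 5 had any read. They summed to 5.14 to 48.1 CPM in DP-DSCs against 0 to 17.3 CPM in TP-DSCs, mainly Cd68, while Cd3e, Itgax, Laptm5 and Tyrobp were at 0 in all 6 libraries and Ptprc reached 0.0920 CPM in 1 DP-DSC library. Fibroblast markers summed to 0.704 to 3.19 CPM in DP-DSCs against 0 to 2.90 in TP-DSCs, with Col1a2, Col3a1, Dcn, Lum and Pdgfrb at 0. Endothelial markers summed to 0.245 to 1.78 CPM in DP-DSCs against 0 to 4.995 in TP-DSCs, with Pecam1 at 0. The part of these levels, of the fewer genes detected in TP-DSCs and of the name number in the differences given next was not tested, apart from the values within each number.

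The 10 genes did not differ as a block between the sorted populations. The tapasin gene and the non-classical heavy chain H2-T23 were lower in every TP-DSC library than in every DP-DSC library. The light chain B2m, the classical heavy chain H2-K1 and both general ER chaperones stood at overlapping levels. The low-abundance TAP subunits and H2-D1 were scattered, each with a single TP-DSC library far below the rest. In these bulk RNA samples, fewer cells expressing a gene and less RNA per cell cannot be told apart.

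Tapbp, the gene that prompted the choice, stood at 80.1, 96.9 and 84.9 CPM in DP-DSCs replicates 1, 2 and 3 and at 37.2, 45.6 and 47.9 CPM in TP-DSCs replicates 1, 2 and 3. The groups did not overlap, and the highest TP-DSC library lay well below the lowest DP-DSC library. The means were 87.3 ± 8.66 CPM (SD, n = 3) and 43.6 ± 5.65 CPM (SD, n = 3), so that TP-DSCs held 49.9% of the DP-DSC level. The edgeR log2 fold change (TMM scaling) was -1.02 ± 0.19 (SE). The libraries behind these values held 776 to 3166 Tapbp reads.

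The Tapbp difference was of similar size under both library name numbers. In TMM-scaled log2 CPM (prior count 2), TP-DSCs differed from DP-DSCs by -1.07 between the 2 libraries named 3840. The difference was -0.99 between the 4 named 4140. The spread within a group was small, with a coefficient of variation of 9.92% in DP-DSCs and 12.96% in TP-DSCs. Over 17 alternative settings the Tapbp log2 fold change ran from -1.08 to -0.98. These settings reuse the libraries in which Tapbp was picked as lower, so they describe the difference and do not test it.

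**Figure D1:**
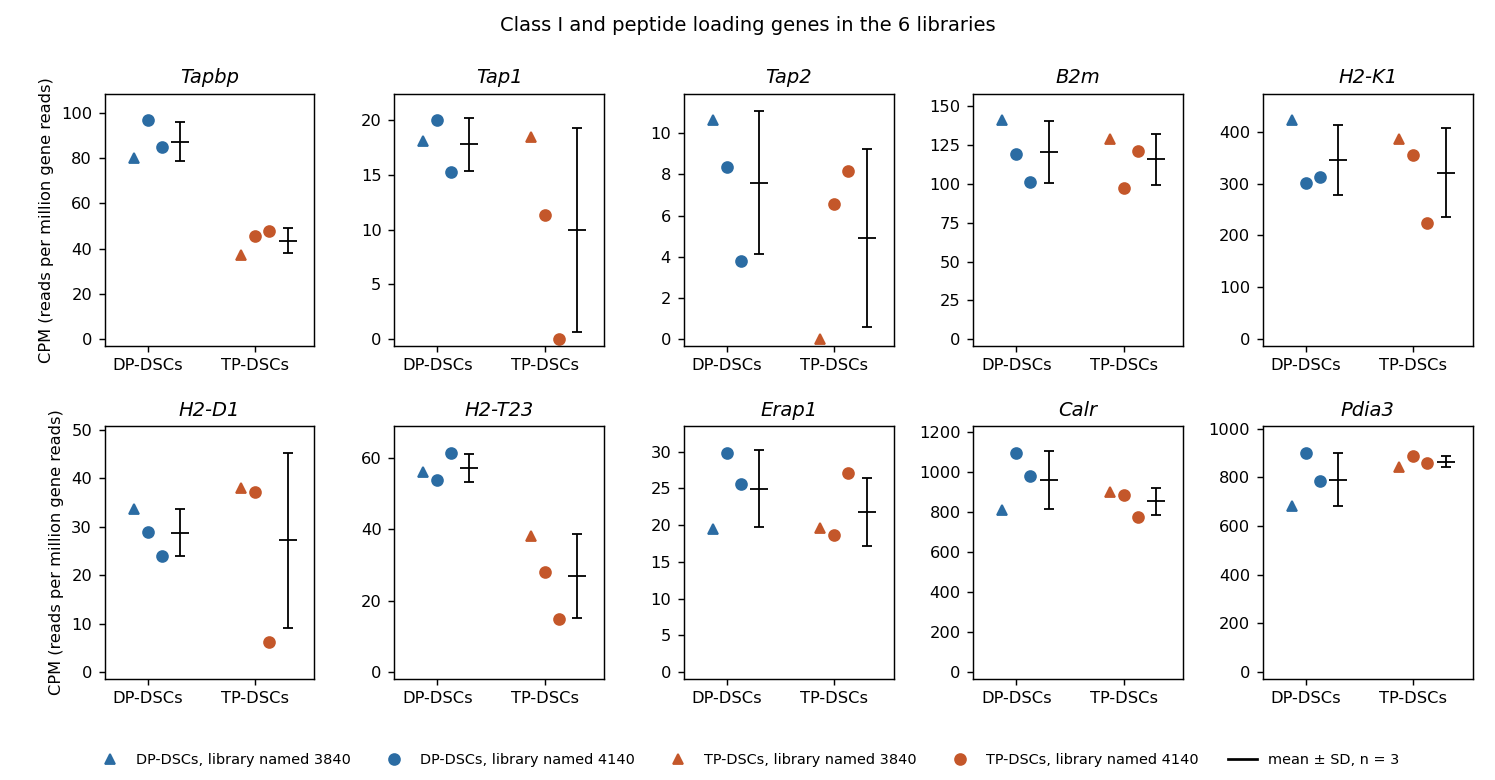
CPM of each of the 10 genes (vertical axis, linear and from 0) in the 3 DP-DSC and 3 TP-DSC libraries, with triangles for libraries named 3840, circles for those named 4140 and bars for the mean ± SD (n = 3). The TP-DSC points of Tapbp (37.2 to 47.9 CPM) and H2-T23 (14.8 to 38.1 CPM) lie below all DP-DSC points, and Tap1 and Tap2 each have 1 TP-DSC library at 0.

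Tap1 and Tap2, the subunits of the peptide pump, were the scarcest of the loading complex genes. Tap1 stood at 18.1, 20.05 and 15.2 CPM in DP-DSCs and at 18.5, 11.3 and 0 CPM in TP-DSCs, in replicate order. TP-DSCs replicate 1 lay within the DP-DSC range, while replicate 3 had no Tap1 read, which allows up to 0.0966 CPM (3 counts; counting error only, since reads are not independent molecules). Tap2 stood at 10.6, 8.36 and 3.81 CPM in DP-DSCs and at 0, 6.58 and 8.18 CPM in TP-DSCs, so the groups overlapped and the library at 0 (up to 0.120 CPM) was replicate 1.

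The TAP subunits were thus missing from different TP-DSC libraries, Tap2 from the one named 3840 and Tap1 from one named 4140. Among 740 genes with a mean of 15 to 20 CPM in DP-DSCs, 6.22% had no reads in TP-DSCs replicate 3. Among 954 genes with a mean of 5 to 10 CPM in DP-DSCs, 17.5% had none in TP-DSCs replicate 1. At least 1 TP-DSC library lacked reads for 13.5% of the former genes and for 53.1% of the latter. These shares describe genes chosen by their DP-DSC level, and their bearing on the TAP subunits was not tested. The log2 fold changes were -0.80 ± 1.57 (SE) for Tap1 and -0.70 ± 1.71 for Tap2, errors that exceed the differences. The Tap1 value was -0.21 without TP-DSCs replicate 3, -1.74 without TP-DSCs replicate 1 and -4.18 in limma-voom. The Tap2 value was -0.13 without TP-DSCs replicate 1, -1.28 without TP-DSCs replicate 3 and -2.78 in limma-voom.

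B2m, the light chain shared by class I molecules, stood at 141, 119 and 101 CPM in DP-DSCs and at 129, 97.4 and 121 CPM in TP-DSCs. The ranges overlapped almost fully, with a log2 fold change of -0.07 ± 0.23 (SE). H2-K1, the most abundant heavy chain, stood at 423, 302 and 313 CPM in DP-DSCs and at 386, 355 and 224 CPM in TP-DSCs. Its log2 fold change was -0.12 ± 0.29, and its lowest library was TP-DSCs replicate 3. Leaving out 1 library moved both genes to either side of 0. B2m ran from -0.23 without TP-DSCs replicate 1 to 0.07 without DP-DSCs replicate 1, and was also 0.07 without TP-DSCs replicate 2. H2-K1 ran from -0.35 without TP-DSCs replicate 1 to 0.11 without TP-DSCs replicate 3, and was 0.06 without DP-DSCs replicate 1.

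H2-D1, the other classical heavy chain, stood at 33.6, 28.8 and 23.9 CPM in DP-DSCs and at 37.996, 37.3 and 6.28 CPM in TP-DSCs. The first and second TP-DSC libraries were the highest of all 6 and the third was the lowest. Its log2 fold change of -0.08 ± 0.66 (SE) became 0.40 without TP-DSCs replicate 3 and 0.06 without DP-DSCs replicate 1, but -0.49 without TP-DSCs replicate 1, -0.31 without TP-DSCs replicate 2 and -0.76 in limma-voom.

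H2-T23, which encodes Qa-1, the non-classical class I molecule that presents leader peptides of other class I chains to NK and T cell receptors, was the heavy chain with the widest gap between the groups. It stood at 56.0, 53.7 and 61.4 CPM in DP-DSCs and at 38.1, 27.9 and 14.8 CPM in TP-DSCs. No TP-DSC library reached the DP-DSC range, but the TP-DSC libraries spread widely, with a coefficient of variation of 43.4% against 6.93% in DP-DSCs. The means were 57.0 ± 3.95 CPM (SD, n = 3) and 26.9 ± 11.7 CPM (SD, n = 3), and the log2 fold change was -1.07 ± 0.40 (SE). The difference was -0.52 between the libraries named 3840 and -1.53 between those named 4140. The fitted value was -0.76 without TP-DSCs replicate 3 and -1.51 without TP-DSCs replicate 1, and it was below 0 in all 17 alternatives run.

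The heavy chain counts are less certain than the others because the genes resemble each other, and no source used here gives the counting rule for reads that fit several genes. Of the 50-base words in the longest coding transcript, 28.8% of those of H2-T23, 14.3% of those of H2-D1 and 8.79% of those of H2-K1 also occurred in transcripts of another gene. For H2-T23 the gene sharing most words was H2-T-ps, with 12.9%. The share was 2.001% for Tapbp and 0% for B2m, Erap1 and Pdia3. Tapbp overlaps Zbtb22 on the same strand and Gm19412 on the other. Tap1 overlaps Psmb9, B2m overlaps Patl2 and Erap1 overlaps Cast on the other strand. H2-T23 overlaps A930015D03Rik, Tap2 overlaps Gm15821 and Gm20496, and Pdia3 overlaps Catsper2, also on the other strand.

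Among reads of the 3 heavy chains, H2-K1 took 78.5 to 82.5% in DP-DSCs and 83.5 to 91.4% in TP-DSCs. H2-T23 took 10.9, 14.0 and 15.4% in DP-DSCs and 8.25, 6.65 and 6.05% in TP-DSCs. The H2-T23 share was thus lower in every TP-DSC library, and it needs no scaling between libraries. H2-D1 took 5.999 to 7.50% in DP-DSCs, and 8.23, 8.87 and 2.56% in TP-DSCs.

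Erap1, the ER aminopeptidase that trims peptides to class I length, stood at 19.4, 29.8 and 25.6 CPM in DP-DSCs and at 19.6, 18.7 and 27.1 CPM in TP-DSCs, with a log2 fold change of -0.21 ± 0.39 (SE). Calr stood at 810, 1098 and 980 CPM in DP-DSCs and at 900, 887 and 775 CPM in TP-DSCs, and its log2 fold change was -0.18 ± 0.20. Both ranges overlapped. Pdia3 stood at 683, 902 and 786 CPM in DP-DSCs and at 845, 888 and 861 CPM in TP-DSCs. All of its TP-DSC libraries lay inside the DP-DSC range, and its log2 fold change of 0.12 ± 0.18 was the only one of the 10 above 0, turning to -0.01 in the libraries named 4140 alone. Over 17 alternatives Erap1 ran from -0.36 to -0.08, Calr from -0.38 to -0.08 and Pdia3 from -0.01 to 0.17. Within the library name numbers the difference in log2 CPM was 0.18 (3840) and -0.36 (4140) for Calr, 0.05 and -0.34 for Erap1, and 0.21 and -0.81 for H2-D1, so that these genes had opposite signs under the 2 numbers.

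**Figure D2:**
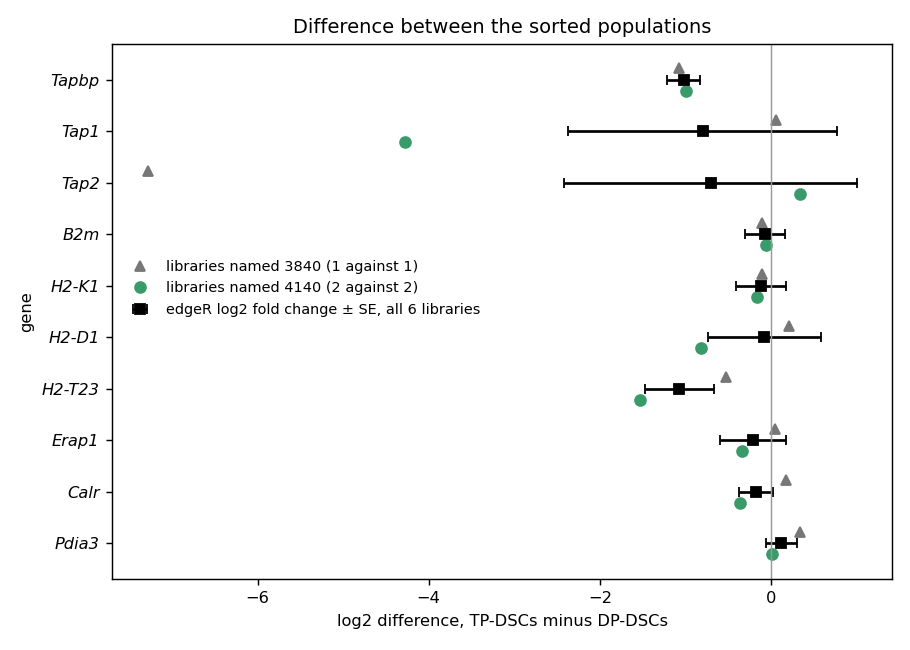
Log2 difference between TP-DSCs and DP-DSCs (horizontal axis) for each gene. Squares and bars show the edgeR fold change ± SE over all 6 libraries. Triangles stand for the libraries named 3840 (1 against 1) and circles for those named 4140 (2 against 2). Triangles and circles are differences in mean TMM-scaled log2 CPM (prior count 2). Tapbp lies near -1 by all 3 measures, whereas Tap1 and Tap2 have the widest bars and each hold 1 TP-DSC library without reads.

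Of the 10 genes, 2 had every TP-DSC library below every DP-DSC library, Tapbp and H2-T23, and 0 had every one above, where 8.56% of the 11925 tested genes were wholly below and 3.87% wholly above. Among tested genes with reads in all 6 libraries 5.1% were wholly below. The median log2 fold change was -0.19 over the 10 genes and -0.02 over all tested genes. At an adjusted p under 0.05 in edgeR's quasi-likelihood test 0 of the 10 genes were called, with 0% of all tested genes called and 6.1% at an unadjusted p under 0.05. DESeq2 called 1, Tapbp, which was lower, and 1.87% of all genes it tested, 1.6% as lower. Tapbp was chosen on this contrast, so nothing is read from these counts.

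Ratios of genes within a library do not depend on how libraries are scaled, and 9 were computed on reads per kilobase of the longest coding transcript. Tapbp stood at 7.45, 6.65 and 6.53% of Calr in DP-DSCs and at 3.12, 3.87 and 4.66% in TP-DSCs. Against Pdia3, Tapbp stood at 11.2, 10.3 and 10.3% in DP-DSCs and at 4.21, 4.91 and 5.32% in TP-DSCs. Both ratios were lower in every TP-DSC library. They reuse the Tapbp values on which the genes were chosen, so they describe the difference and do not test it. The share of all gene pairs whose ratio separates the groups was not counted.

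Against H2-K1, Tapbp stood at 10.6, 17.9 and 15.2% in DP-DSCs and at 5.39, 7.18 and 12.0% in TP-DSCs, and the groups overlapped through TP-DSCs replicate 3 and DP-DSCs replicate 1. H2-T23 per H2-K1 was 14.6, 19.6 and 21.6% in DP-DSCs and 10.9, 8.65 and 7.28% in TP-DSCs, with no overlap. Pdia3 per Calr was 66.5, 64.7 and 63.2% in DP-DSCs and 74.0, 78.9 and 87.6% in TP-DSCs, again with no overlap and in the opposite direction, although neither gene alone separated the groups. B2m per H2-K1 overlapped, at 60.8 to 74.3% in DP-DSCs and 51.7 to 102% in TP-DSCs. H2-D1 per H2-K1 (5.88 to 7.36% in DP-DSCs, 2.16 to 8.09% in TP-DSCs) overlapped as well. So did Tap1 per Tapbp (17.6 to 22.2% and 0 to 48.9%). Tap2 per Tap1 had no value in TP-DSCs replicate 3, which had no Tap1 read.

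**Figure D3:**
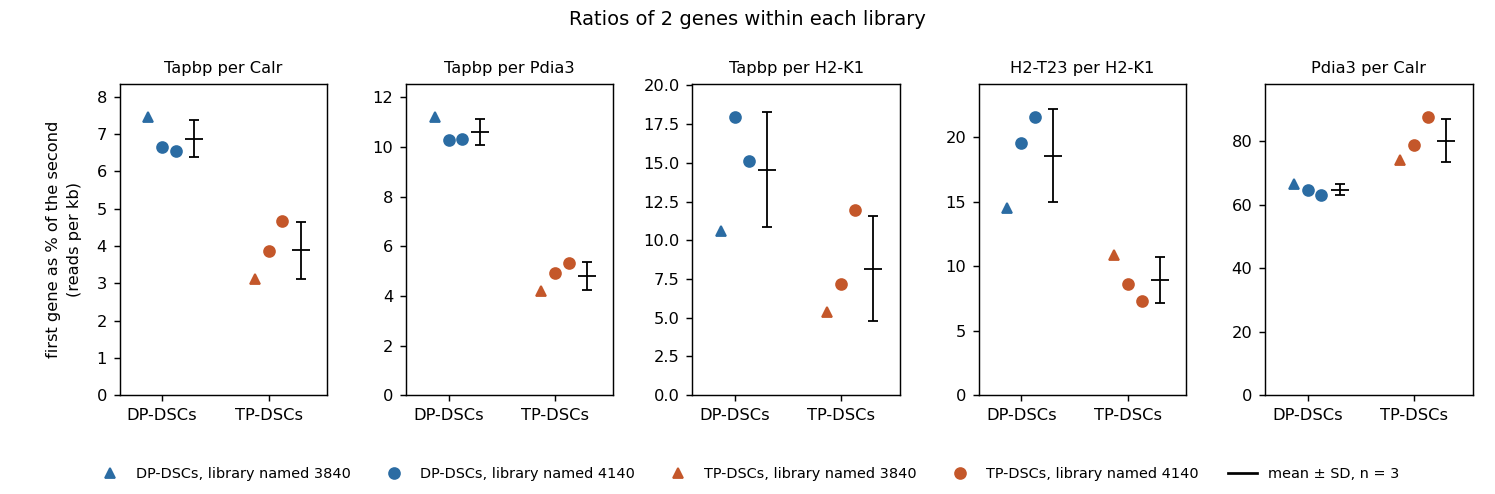
Reads per kilobase of the first gene as a percent of the second (vertical axis, from 0) in each of the 6 libraries, with mean ± SD (n = 3). Tapbp per Calr and per Pdia3 and H2-T23 per H2-K1 are lower in all 3 TP-DSC libraries, Pdia3 per Calr is higher in all 3, and Tapbp per H2-K1 overlaps.

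Levels were compared between genes as CPM per kilobase of the longest coding transcript. In DP-DSCs the order was Calr (441), Pdia3 (285), H2-K1 (214), B2m (140), H2-T23 (38.7), Tapbp (30.1), H2-D1 (13.7), Tap1 (6.03), Erap1 (4.42) and Tap2 (2.21 CPM per kb). Calr stood first and Tap1, Erap1 and Tap2 last in all 3 DP-DSC libraries, and H2-K1 and Pdia3 changed places between them (261 against 247 CPM per kb in replicate 1, 186 against 326 in replicate 2). In TP-DSCs the means ran from Calr (391) through Pdia3 (312), H2-K1 (199), B2m (135), H2-T23 (18.3), Tapbp (15.04), H2-D1 (12.9), Erap1 (3.86) and Tap1 (3.37) to Tap2 (1.43 CPM per kb). H2-T23, Tapbp and H2-D1 exchanged places among the TP-DSC libraries, as did Tap1, Tap2 and Erap1, so these neighbours in the order are not separated beyond their spread.

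The libraries differed in which genes were low. TP-DSCs replicate 3 was the lowest of the 6 libraries for 5 of the 10 genes: Tap1, H2-K1, H2-D1, H2-T23 and Calr. The share of all tested genes that were lowest in this library was not counted, so the 5 are a description only. In that library B2m and Erap1 were not low, at 121 and 27.1 CPM, and Tapbp was the highest of the TP-DSC libraries. Over the 6 libraries the log2 CPM of H2-D1 had a Pearson correlation of 0.88 with H2-K1 and of 0.96 with Tap1, while Tapbp had 0.72 with H2-T23, 0.09 with H2-K1 and -0.60 with Pdia3. These describe 6 libraries that share 1 organoid line, and H2-D1, H2-K1 and Tap1 were all lowest in TP-DSCs replicate 3.

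Genes whose log2 CPM was among the 5 most like that of Tapbp over the 6 libraries, among 6266 genes with mean log2 CPM no lower than 5, were G6pdx (Pearson r = 0.99), C130074G19Rik (0.98), Gramd1a (0.97) and Rnmt (0.97). G6pdx, the entry enzyme of the pentose phosphate pathway, stood at 266, 309 and 293 CPM in DP-DSCs and at 180, 219 and 222 CPM in TP-DSCs, with the same order of libraries as Tapbp. The genes most like H2-T23 were Man2b1 (0.99), Nfkb1 (0.99), Atg4d (0.99), Ptov1 (0.98) and Pes1 (0.98). Nfkb1 encodes the p105/p50 subunit of NF-kappaB, and its levels were 57.5, 59.9 and 64.9 CPM in DP-DSCs and 48.5, 46.8 and 34.4 CPM in TP-DSCs. Tap1, Tap2, H2-D1 and Erap1 lay under the log2 CPM limit of 5 and so could not appear. None of the rest of the 10 was in either set. The correlations named are the highest among 6266 genes over only 6 libraries, so high values follow in part from that selection. Each gene named as most alike was lower in every TP-DSC library than in every DP-DSC library, as were Tapbp and H2-T23. Shared regulation was not tested.

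The contrast between library name numbers was not used in choosing the genes, so it was tested. With group in the model, edgeR's quasi-likelihood test called 0 of the 10 genes between the 4 libraries named 4140 and the 2 named 3840, and 0% of the 12516 genes tested, with 9.01% at an unadjusted p under 0.05. DESeq2 called 0 of the 10 and 5.42% of all genes it tested. B2m and H2-K1 were the 2 of the 10 genes with an unadjusted p under 0.05. B2m had a log2 difference of -0.44 ± 0.17 (SE; lower in the libraries named 4140; edgeR adjusted p = 0.531) and H2-K1 one of -0.58 ± 0.22 (edgeR adjusted p = 0.519). Both lay below 0 in all 12 alternatives run, with adjusted p from 0.0954 to 1 for B2m and from 0.0822 to 1 for H2-K1. Tapbp differed by 0.11 ± 0.20 and H2-T23 by -0.56 ± 0.38 between the numbers, with edgeR adjusted p of 0.925 and 0.695.

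Position was compared next, since Tapbp sits at the edge of the MHC. Of 15 annotated protein-coding genes that start within 100 kb of its start, 12 had a row and 11 were tested. The 11 include H2-K1, itself among the 10 genes examined. The log2 fold changes of the 11 ran from -0.34 (Daxx) to 0.32 (Kifc1), none had groups that did not overlap, and none was called by edgeR. Zbtb22, whose annotated start lies 5 bases from that of Tapbp on the same strand, stood at 31.9996, 32.8 and 31.4 CPM in DP-DSCs and at 35.4, 30.03 and 38.2 CPM in TP-DSCs, with 0.10 ± 0.28 (SE) as its log2 fold change. Rgl2, which starts 13644 bases downstream, had 0.29 ± 0.21. B3galt4, a glycosyltransferase gene with too few reads to be tested, stood at 6.07, 3.31 and 0.222 CPM in DP-DSCs and had no read in TP-DSCs.

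**Figure D4:**
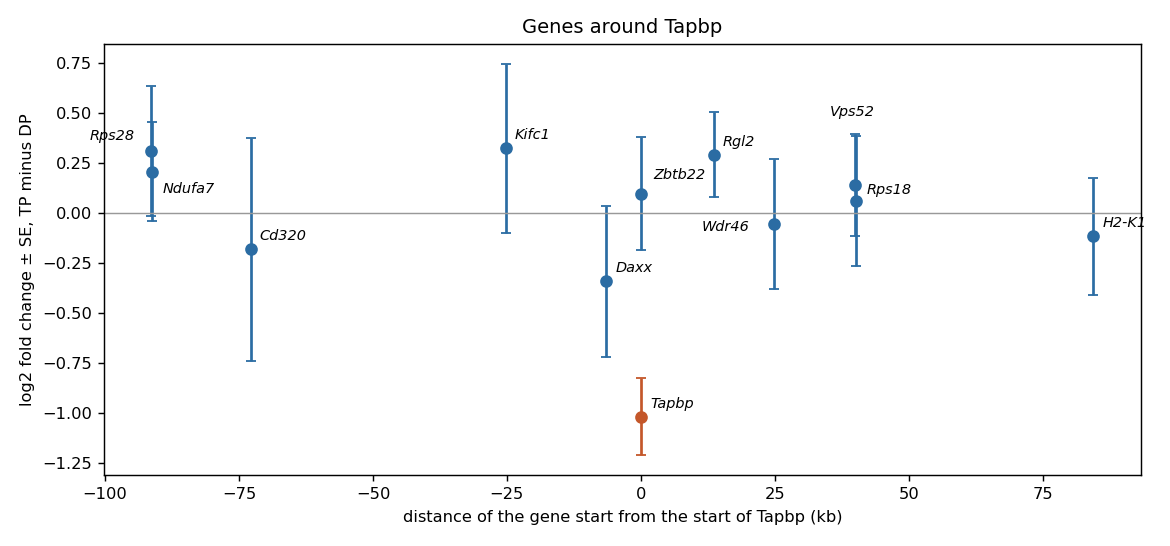
The edgeR log2 fold change ± SE between TP-DSCs and DP-DSCs (vertical axis) against the distance of each gene's annotated start from that of Tapbp in kb (horizontal axis). Tapbp stands at -1.02 while the 11 tested neighbours lie between -0.34 and 0.32.

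The rest of the class I route, together with class II presentation, was described from 6 lists with 77 genes. All 77 had a row and 55 were tested. Between TP-DSCs and DP-DSCs, 0 of these were called by edgeR and 0 by DESeq2. Of the 55, 4 (7.27%) were lower in each TP-DSC library than in any DP-DSC library, and 0 were higher in each. The 7.27% is near the 8.56% over all tested genes. It includes H2-DMa, which belongs to the class II list. The medians of the lists lay between -0.09 and 0.14, apart from that of the other heavy chains. The genes named with the 3 highest mean CPM of each list follow a rule, and the others named below were chosen after their values were seen.

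Genes of ER folding and quality control (13, all tested) had -0.09 as the median log2 fold change, 10 of them below 0 and 3 above. P4hb, a protein disulfide isomerase, averaged 1488 ± 396 CPM (SD, n = 3) in DP-DSCs against 1406 ± 455 CPM in TP-DSCs. It was lower in the libraries named 4140 than in those named 3840, by a log2 difference of -0.78 ± 0.23 (SE). The edgeR adjusted p for this difference was 0.424 and the DESeq2 adjusted p was 0.00795. The ER chaperones Hspa5 and Hsp90b1 averaged 775 ± 39.8 and 666 ± 56.2 CPM in DP-DSCs, and 750 ± 85.8 and 862 ± 182 CPM in TP-DSCs. Canx (calnexin), which holds new heavy chains before Calr does, averaged 676 ± 53.9 and 695 ± 27.4 CPM. Tapbpl (TAPBPR), a relative of tapasin that also edits peptides, stood at 11.01, 16.7 and 13.7 CPM in DP-DSCs and at 2.65, 13.9 and 7.69 CPM in TP-DSCs, which overlapped, with a log2 fold change of -0.82 ± 0.79 (SE). Prkcsh (glucosidase II beta subunit) and Mogs (glucosidase I), which trim the glycans that Calr reads, were the 2 genes with every TP-DSC library below, with log2 fold changes of -0.43 ± 0.19 and -0.34 ± 0.21.

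Of 15 other class I heavy chains, 7 had no read in any library (H2-Q6, H2-Q7, H2-M2, H2-T3, H2-T10, H2-T22 and H2-T24), 5 were tested, and 4 of these lacked reads in at least 1 library. For H2-T10 and H2-T22, 42.9 and 44.7% of 50-base words are shared with another gene, and how such reads were counted is not known. H2-Q4 stood at 14.1, 7.93 and 6.66 CPM in DP-DSCs and at 0.681, 33.5 and 22.8 CPM in TP-DSCs, so the lowest and the highest libraries were both TP-DSCs. Mr1, which presents vitamin B metabolites, averaged 7.94 ± 5.87 and 5.30 ± 4.62 CPM, and H2-Q10 averaged 3.56 ± 4.02 and 5.70 ± 6.66 CPM. H2-M3 reached 3.53 CPM in DP-DSCs against 11.9 CPM in TP-DSCs. The median of the 5 was 0.91, which rests on such scattered genes.

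The immunoproteasome subunits Psmb8 and Psmb9 reached 0.337 and 1.32 CPM at most in DP-DSCs, and neither had a read in any TP-DSC library. Psmb10, the remaining immunoproteasome subunit, stood at 12.0, 8.29 and 12.5 CPM in DP-DSCs and at 21.6, 6.99 and 17.03 CPM in TP-DSCs. The constitutive counterparts were more abundant, with Psmb5 at 46.5 to 65.3 CPM in DP-DSCs against 70.4 to 88.4 CPM in TP-DSCs, Psmb6 at 117 to 150 and 105 to 138, and Psmb7 at 159 to 218 and 166 to 275. Psme3 averaged 194 ± 30.4 and 203 ± 39.5 CPM, Psme4 176 ± 12.4 and 213 ± 47.0, and the interferon-inducible Psme1 39.6 ± 2.43 and 37.1 ± 11.6 CPM. Psme2, its partner in the PA28 activator, ranged from 19.6 to 24.7 CPM in DP-DSCs against 12.2 to 22.9 CPM in TP-DSCs. The median of the 5 tested genes was 0.06.

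Nlrc5, the transactivator of class I promoters, stood at 0.0614, 0 and 0.111 CPM in DP-DSCs and at 0 in all TP-DSC libraries, and was not tested. The other 21 class I regulators were tested, with 9 above and 12 below 0 and a median of -0.05. Jak1 averaged 131 ± 8.69 CPM in DP-DSCs against 146 ± 23.7 CPM in TP-DSCs, Rela 75.2 ± 11.01 and 76.3 ± 18.3, and the interferon-gamma receptor chain Ifngr1 61.3 ± 18.3 and 69.5 ± 19.4 CPM. Nfkb1 was the only one with every TP-DSC library below, with a log2 fold change of -0.50 ± 0.25 (SE).

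The 8 cytosolic peptidases, which cut proteasome products further, had 0.14 as their median, with 5 above and 3 below 0. Npepps averaged 211 ± 76.7 CPM in DP-DSCs against 258 ± 50.04 CPM in TP-DSCs, Nrd1 168 ± 18.3 and 188 ± 26.3, and Thop1 161 ± 32.8 and 149 ± 32.4 CPM. Class II genes, which serve presentation to CD4 T cells, were almost absent: 6 of 12 had no read in any library, Cd74 reached 0.765 CPM and Ciita 0.407 CPM in DP-DSCs, and both were at 0 in TP-DSCs. Of the 3 tested, Ifi30, a lysosomal thiol reductase, averaged 98.0 ± 80.2 and 98.8 ± 47.9 CPM. In replicate order, Ifi30 stood at 190, 63.9 and 40.5 CPM in DP-DSCs and at 151, 87.3 and 57.6 CPM in TP-DSCs. It was lower in the libraries named 4140 than in those named 3840, by a log2 difference of -1.62 ± 0.29 (SE). The edgeR adjusted p for this difference was 0.193 and the DESeq2 adjusted p was 0.000615. H2-DMa stood at 0.407 to 0.735 CPM in DP-DSCs without a read in TP-DSCs, and H2-DMb1 stood at 1.99 to 2.26 CPM in DP-DSCs and at 0, 0 and 9.40 CPM in TP-DSCs.

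**Figure D5:**
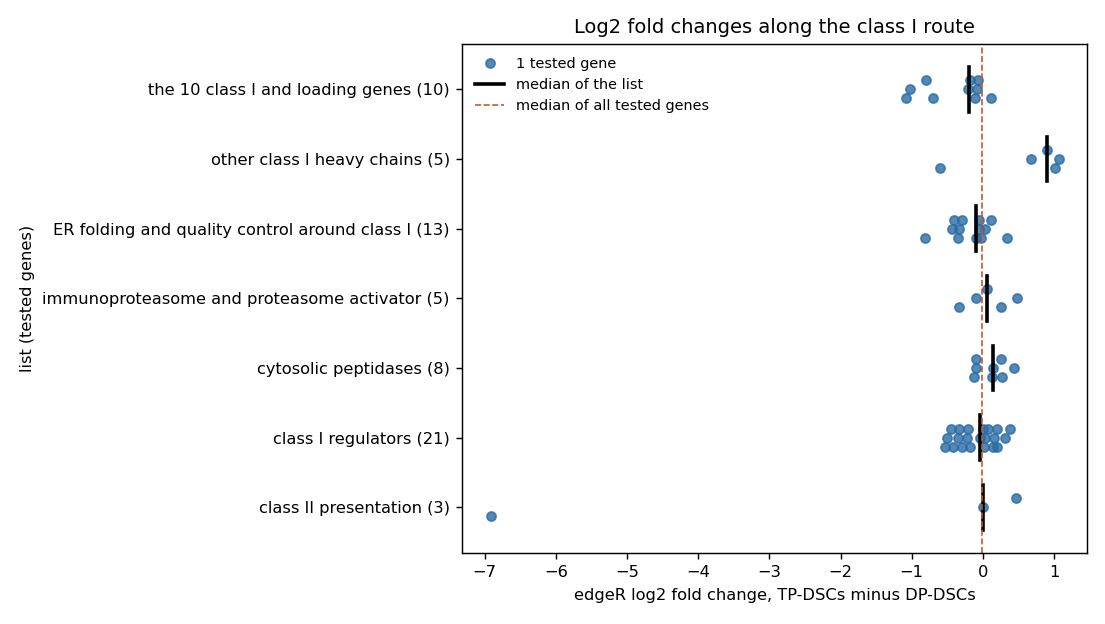
The edgeR log2 fold change between TP-DSCs and DP-DSCs (horizontal axis) of each tested gene. Rows hold the 10 class I and loading genes and 6 lists, of the class I route and of class II presentation. The number of tested genes stands in brackets. Black bars show list medians and a dashed line the median of all tested genes (-0.02). The medians lie between -0.19 and 0.14 except that of the other heavy chains (0.91, 5 genes), and the point near -7 is H2-DMa, without reads in TP-DSCs.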

How the data were processed

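The deposited files give the authors' raw read counts per gene symbol for 3 DP-DSC and 3 TP-DSC libraries from a stranded, polyA-selected kit, per the labels' protocols. STAR 2.7.3a, Partek, DESeq2 3.5 and build mm10 (GRCm38) are named in the submitters' processing notes. No source used here gives their roles or the strand setting of the counting. Reads in no gene (14.1 to 20.3%) and ambiguous reads (1.09 to 1.86%) were left out. CPM is a gene's reads per 1000000 gene reads, without TMM scaling (trimmed mean of M values). Log2 CPM differences and correlations, in contrast, used TMM-scaled library sizes. Replicate numbers follow accession order and pair no samples. Libraries of a group differed by a chi-square of 112.2 to 306.1 per degree of freedom, so each was counted separately.

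Counts were fitted in R 4.3.3 with edgeR 4.0.16 (filterByExpr with minimum count 10 and total 15, TMM, quasi-likelihood test, Benjamini-Hochberg adjustment over all tested genes at 0.05). The SE is the log2 fold change over the square root of F. DESeq2 1.42.0 (all genes with reads), limma-voom (limma 3.58.1), other scalings and filters, the name number as a block, libraries named 4140 alone and leaving out each library were alternatives. Lengths, coordinates and 50-base words came from GENCODE M21. Members and lists were chosen with earlier results of these data known. The rule named all 10 genes, the 3 tested genes of each list with the highest mean CPM, called genes, the 5 genes most like Tapbp and H2-T23, and neighbours within 100 kb. Psmb5, Psmb6, Psmb7, Psme2, H2-M3, Cd1d1, Canx, Tapbpl, Prkcsh, Mogs, Psmb8, Psmb9, Psmb10, Nlrc5, Cd74 and Ciita were added after seeing values. A motif searched and a gene that the rule names are not reported here.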

Additional observations from a re-analysis of the deposited data

How the results depend on the processing

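The count of genes called between TP-DSCs and DP-DSCs was 0 in edgeR under every scaling, filter, block and leave-one-out fit run and in limma-voom (961 genes at an unadjusted p under 0.05), but 267 in DESeq2 on all genes with reads and 94 in DESeq2 after filterByExpr, the latter chosen after seeing the data. The cause was not tested. Between the libraries named 4140 and 3840 the count was 0 in edgeR, 56 with no filter, 64 over genes with reads in all 6 libraries (chosen after seeing the data), 695 in DESeq2 and 1224 in DESeq2 after filterByExpr. It ran from 0 to 7 when 1 library was left out, with 7 without DP-DSCs replicate 3. The cause was not tested. Between TP-DSCs and DP-DSCs, 0 of the tested genes of the 6 lists, class II presentation included, were called under any setting run. From 49 to 64 of them were tested, depending on the setting. Between the libraries named 4140 and 3840, DESeq2 on all genes with reads called Ifi30, P4hb, H2-M3 and Cd1d1 among the 55. It called 5.42% of all genes it tested. Ifi30 and P4hb were lower in the libraries named 4140, and H2-M3 and Cd1d1 lacked reads in some library. Of the differences of the 10 genes between name numbers, 6 turned sign with none called: Tap2 (-0.91 without TP-DSCs replicate 1, and up to 10.56 without DP-DSCs replicate 1), Calr (0.12 with library size only, 0.28 without TP-DSCs replicate 1, 0.06 without TP-DSCs replicate 3, and down to -0.26 without DP-DSCs replicate 1) and Pdia3 (-0.10 without DP-DSCs replicate 1 and -0.0016 without DP-DSCs replicate 2, and up to 0.22 without TP-DSCs replicate 1). With library size only, the median of all genes in that contrast was 0.13, against -0.01 with TMM, and relative to it Calr stayed below 0. Between the sorted groups, Tap1 moved to -1.69 and Tap2 to 0.24 in the libraries named 4140 alone. No paired analysis was possible because the replicate numbers only follow the order of deposit and tie no library to another. With the name number as a block instead, Tapbp stood at -1.02, H2-T23 at -1.16, Tap1 at -1.10, Tap2 at -1.30 and H2-D1 at -0.14. Tap1 and Tap2 have no value over genes with reads in all 6 libraries.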
